A study of Mus musculus with 15 samples.

Results

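The genes described here build the release side of the synapse: synaptic vesicle proteins, the fusion machinery, the active zone and the retrieval of vesicle membrane. They were chosen by name, as 36 gene symbols, and every array feature whose single gene symbol is one of them was taken. Of these genes, 35 had values, on 73 of the 34479 features with values, and 2 further features of the same genes held no values. Sv2c was not analysed here. The whole table gave 16401 genes.

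Expression was measured on 15 one-colour Agilent arrays of whole brain cortex from adult female mice, with 5 arrays from sedentary SAMR1, 5 from sedentary SAMP8 and 5 from exercised SAMP8. SAMP8 is an inbred line prone to accelerated senescence with early learning and memory deficits, and SAMR1 is the senescence-resistant line used as its control. No transgene or Cre is named, there was no exercised SAMR1 group, and the sources used here do not give the form or length of the exercise. Replicate numbers run from 1 to 5 (SAMR1), 6 to 10 (sedentary SAMP8) and 11 to 15 (exercised SAMP8). Arrays are labelled as biological replicates without saying if animals were pooled, and where material was shared a p-value measures only how far these samples spread, which may be technical.

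At a presynaptic terminal, vesicles filled with transmitter are held near the membrane by synapsins and by the scaffolds of the active zone. A SNARE complex of vesicle and plasma membrane proteins then fuses them when calcium binds to synaptotagmins, and the membrane is recovered by endocytosis. Terminals in the cortex belong to cortical excitatory neurons and interneurons and also to axons that arrive from the thalamus and other regions, whose presynaptic mRNA lies in cell bodies outside the cortex. In bulk tissue, fewer cells of a type and less RNA per cell cannot be told apart.

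Values are deposited intensities taken as log2, and the brightest feature on average stands for a gene. Any pair of arrays correlated at 0.976 to 0.991, and 0 pairs were identical. The lower quartile of intensity lay at log2 6.17 and the highest value at log2 16. Of 15 listed markers of cortical excitatory neurons 13 were measured, with mean log2 intensities from 7.25 to 16, and 0 lay under the lower quartile on every array. The same count of 0 held for the markers of striatum, thalamus and brainstem, and choroid plexus. Among these, Lhx9, Gbx2 and Otx2 lay under the lower quartile on 14, 13 and 12 arrays. The marker levels therefore do not tell cortex from neighbouring tissue. Differences were tested with limma over all genes, with a threshold of 0.05 on the Benjamini-Hochberg adjusted p, and standard errors (SE) are limma's. Over all genes, 3.03% were called in sedentary SAMP8 against sedentary SAMR1, 0% in exercised against sedentary SAMP8, and 4.26% in exercised SAMP8 against sedentary SAMR1. Each group of arrays enters 2 of the 3 comparisons, so these are not independent of each other. Below, strain means sedentary SAMP8 against sedentary SAMR1.

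The promoters of the 3 genes that the results below turn on are printed here, each as 300 bases around the start in RefSeq, build GRCm38.p6, most of them upstream of it. Amph holds the single call among the genes, Cplx2 the largest disagreement between features among these 35 genes, and Syn1 the widest spread between arrays. Capitals mark a match to a searched motif.
Amph, chr13:18948101-18948400, plus strand: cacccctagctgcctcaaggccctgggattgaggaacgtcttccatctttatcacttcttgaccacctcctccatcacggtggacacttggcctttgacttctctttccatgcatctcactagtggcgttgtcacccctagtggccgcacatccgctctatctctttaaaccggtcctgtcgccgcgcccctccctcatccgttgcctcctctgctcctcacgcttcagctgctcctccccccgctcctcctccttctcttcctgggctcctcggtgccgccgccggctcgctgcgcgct
Cplx2, chr13:54302306-54302605, plus strand: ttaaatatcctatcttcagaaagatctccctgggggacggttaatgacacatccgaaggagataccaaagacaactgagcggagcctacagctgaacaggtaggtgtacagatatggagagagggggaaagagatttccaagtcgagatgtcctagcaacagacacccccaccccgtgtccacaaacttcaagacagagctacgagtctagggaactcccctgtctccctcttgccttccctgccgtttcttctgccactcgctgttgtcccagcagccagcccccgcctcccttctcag
Syn1, chrX:20920869-20921168, minus strand: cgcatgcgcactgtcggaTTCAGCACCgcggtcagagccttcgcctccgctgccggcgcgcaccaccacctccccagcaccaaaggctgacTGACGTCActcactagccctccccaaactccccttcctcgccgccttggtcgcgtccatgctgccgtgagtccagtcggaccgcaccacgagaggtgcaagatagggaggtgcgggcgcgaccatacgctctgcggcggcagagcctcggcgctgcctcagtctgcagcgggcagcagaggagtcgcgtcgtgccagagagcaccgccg

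Syn1 carries TTCAGCACC, part of the RE1 element bound by the neuronal repressor REST, and TGACGTCA, the cyclic AMP response element. RefSeq promoters were found for 27 of the 35 measured genes, 38 promoters in all, and 4 motifs were searched on both strands with overlaps between motifs allowed. TTCAGCACC was in 2 of the 38 promoters (5.26%, in Syn1 and Unc13a) and in 0.371% of all 32851 promoters of the same length. TGACGTCA was in 1 (2.63%, against 1.79% of all), TATAAA in 2, both of Sv2b (5.26%, against 13.6%), and the GC box GGGCGG in 22 (57.9%, against 35.7%). These promoters had a median GC content of 60.8% against 52.7% over all, and a median observed over expected CpG of 0.65 against 0.38. Letters that match are a description and do not show that a factor binds there.

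Of the 35 genes, 1 passed the test in 1 of the 3 comparisons. In sedentary SAMP8 against sedentary SAMR1, 0 of 35 genes were called, 13 differences were positive and 22 negative, and the median log2 difference was -0.06 (0.02 over all genes). In exercised against sedentary SAMP8, 0 were called, 21 were positive and 14 negative, and the median was 0.04 (0.02 over all genes). In exercised SAMP8 against sedentary SAMR1, 1 was called, which is Amph, higher (2.8% of all genes were called higher), 15 were positive and 20 negative, and the median was -0.09 (0.04 over all genes). At an unadjusted p under 0.05 there were 2, 3 and 3 genes in the 3 comparisons, which is 5.71%, 8.57% and 8.57% of 35, while over all genes the shares were 14.3%, 7.08% and 18.2%. In 0 of the 35 genes did the arrays of both groups stay apart without overlap, in any of the 3 comparisons, against 4.57%, 1.1% and 5.8% over all genes. These counts rest on the brightest feature of each gene. Among the dimmer ones, Cplx2 feature 4234 kept SAMR1 above both SAMP8 groups, and Bsn feature 42249 kept SAMR1 below sedentary SAMP8. Syt1 feature 39113 kept SAMR1 above exercised SAMP8.

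**Figure D1:**
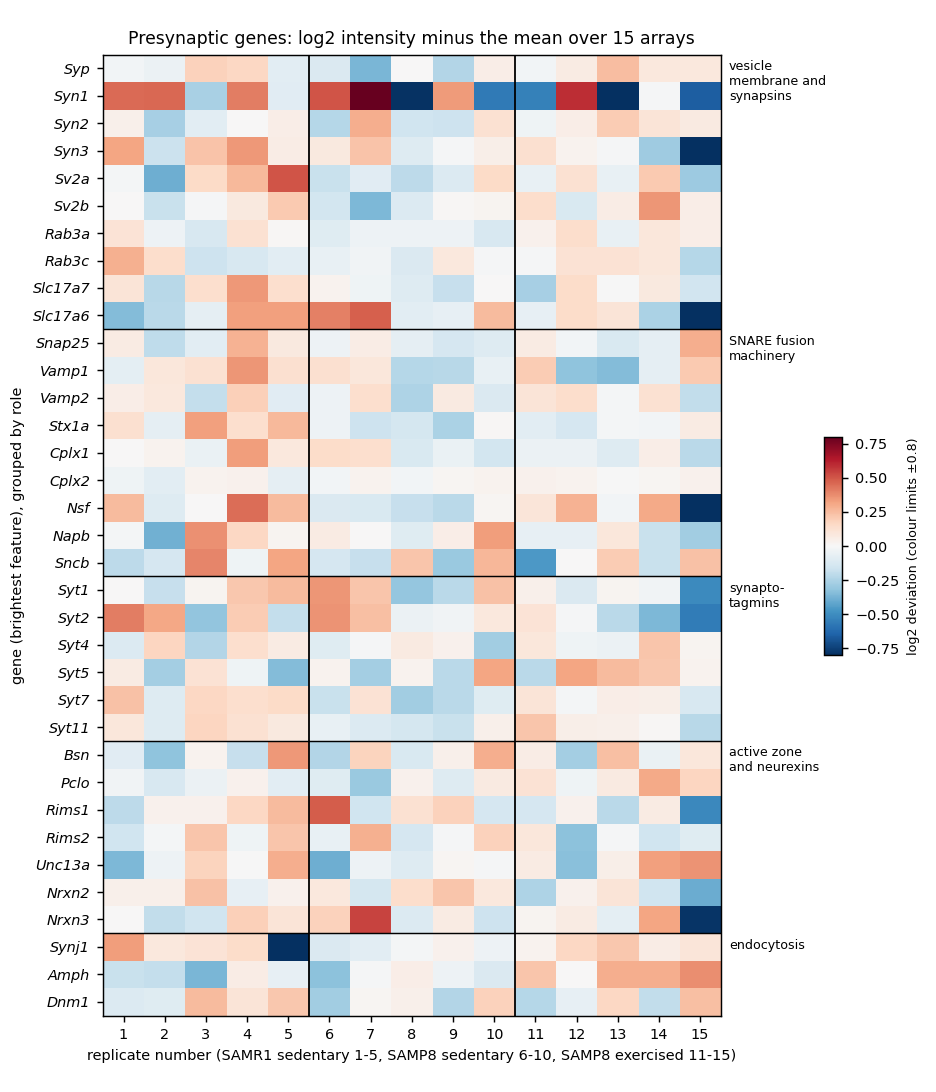
Heat map of the 35 measured presynaptic genes (rows, grouped by role) on the 15 arrays (columns, by replicate number); colour is the deviation of log2 intensity from the mean of the 15 values of that gene, with colours ending at 0.8 either way. Exercised SAMP8 replicate 15 is the lowest array for 11 of the 35 genes, and Syn1 has the widest range.

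The confidence intervals show which sizes of change these arrays leave room for. The 95% interval of the difference lay within 1.5-fold either way for 32, 31 and 29 of the 35 genes in the 3 comparisons, or 91.4%, 88.6% and 82.9%, against 73.8%, 79.2% and 72.8% of all genes. It lay within 2-fold for 35, 34 and 34 genes, with Syn1 the exception in both comparisons that involve exercise. These counts rest on the brightest feature of each gene. For Cplx2 that feature ran only from 15.88 to 16, while a dimmer Cplx2 feature differed by -1.14 in exercised SAMP8 against SAMR1. The median standard deviation between arrays of a group was 0.167 for these genes and 0.194 for all genes on the log2 scale. Neither this value nor the interval shares over all genes were matched to the 35 genes for intensity. Of the 35, 11 had a mean log2 of 14 or more. Some features lay close to the top of the intensity scale, where a change may not show in full: 6 genes, which are Rab3a, Snap25, Cplx2, Nsf, Syt1 and Syt11, had a mean log2 of 15 or more. Narrow intervals of such features do not show that the mRNA was stable. The sources used here give no saturation or detection flags.

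**Figure D2:**
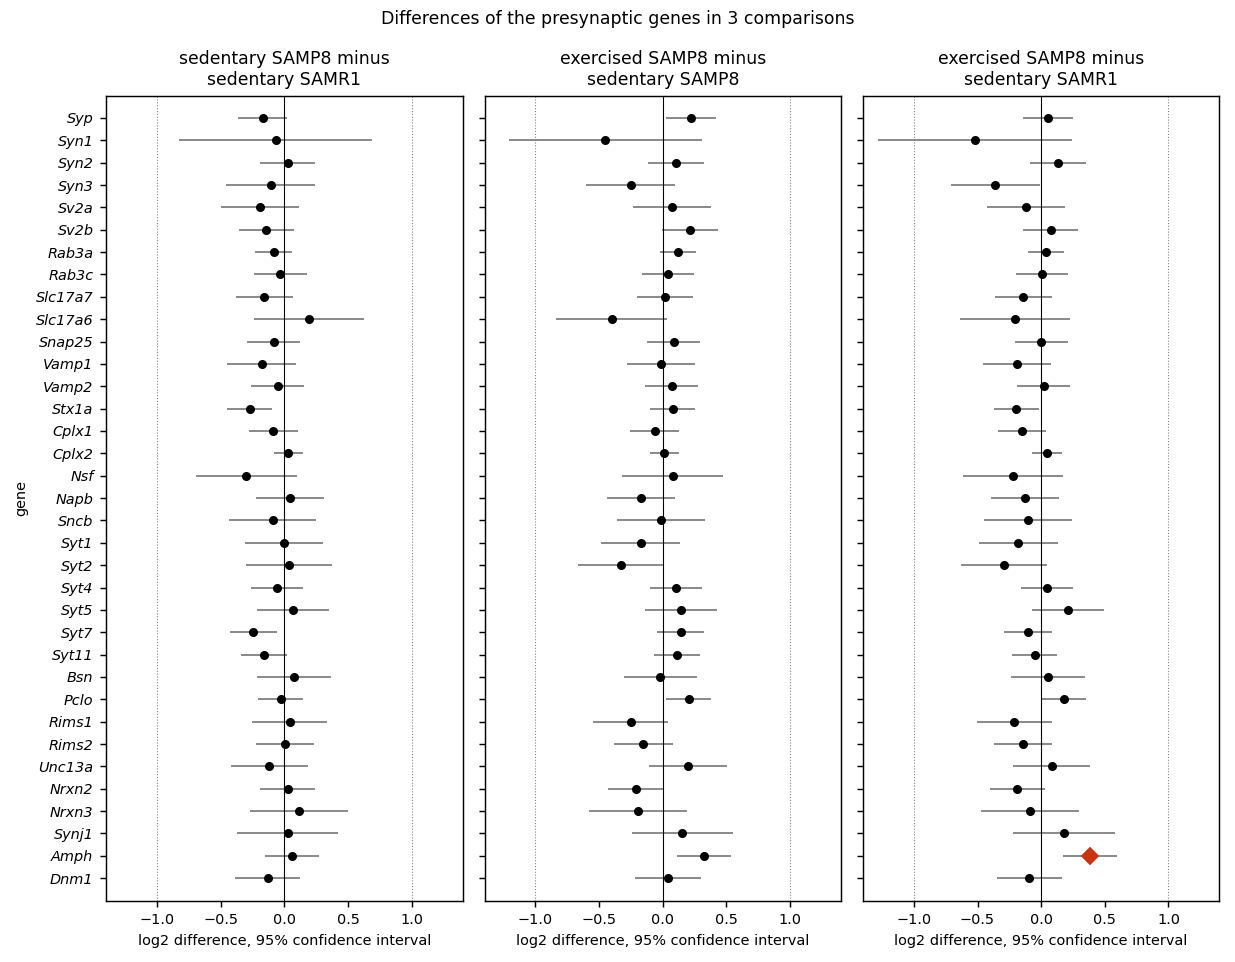
Log2 differences (points) with 95% confidence intervals (lines) for each of the 35 genes in the 3 comparisons; dotted lines mark 2-fold and the red diamond marks a gene at adjusted p under 0.05. Amph in exercised SAMP8 against sedentary SAMR1 is the single red diamond, and the intervals of Syn1 are the widest.

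Among the vesicle membrane proteins and synapsins, 0 of the 10 measured genes were called in any of the 3 comparisons, and the median log2 differences were -0.10 for strain, 0.06 for exercise within SAMP8 and -0.05 for exercised SAMP8 against SAMR1. Syp encodes synaptophysin, an abundant vesicle membrane protein often used as a measure of synapse number. Its log2 intensity was 14.26, 14.24, 14.47, 14.45 and 14.20 in SAMR1, 14.17, 13.92, 14.29, 14.05 and 14.34 in sedentary SAMP8, and 14.26, 14.35, 14.53, 14.37 and 14.37 in exercised SAMP8. The lowest 2 values were both in sedentary SAMP8 and the highest was in exercised SAMP8, but all 3 groups overlapped. The difference was -0.17 ± 0.09 (SE) for strain (limma adjusted p = 0.421), 0.22 ± 0.09 for exercise within SAMP8 (limma adjusted p = 0.679) and 0.05 ± 0.09 for exercised SAMP8 against SAMR1 (limma adjusted p = 0.839).

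Syn1, the synapsin that tethers vesicles to each other and to actin, varied far more between arrays of the same group than the other genes. Feature 282, its brightest, read 13.95, 13.96, 13.24, 13.91 and 13.41 in SAMR1, 14.00, 14.65, 12.71, 13.84 and 12.93 in sedentary SAMP8, and 12.96, 14.09, 12.49, 13.49 and 12.84 in exercised SAMP8. High and low arrays occurred in both SAMP8 groups, with a standard deviation of 0.80 in the sedentary and 0.63 in the exercised group, and the differences of -0.07, -0.45 and -0.52 (± 0.36 SE each) did not pass. Its other feature, 9172, ran from 10.72 to 11.14 over all 15 arrays and gave -0.11, 0.01 and -0.10. The large variation was therefore seen on 1 of the 2 Syn1 features.

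Syn3, a synapsin best known from development, had 4 features that differed in sign. On its brightest feature the values were 10.64, 10.15, 10.55, 10.67 and 10.38 in SAMR1, 10.40, 10.55, 10.22, 10.31 and 10.37 in sedentary SAMP8, and 10.45, 10.35, 10.31, 10.04 and 9.44 in exercised SAMP8. The last of these, replicate 15, was the lowest of all, and the difference between exercised SAMP8 and SAMR1 was -0.36 ± 0.16 (limma adjusted p = 0.257), or -0.19 without that array. In exercised against sedentary SAMP8 the Syn3 features ran from -0.25 to 0.24, the largest spread in that comparison among the 24 of these genes with more than 1 feature.

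The remaining vesicle genes did not pass either. Sv2a and Sv2b, vesicle glycoproteins related to transporters, differed by -0.19 ± 0.14 and -0.14 ± 0.10 for strain, and Sv2b by 0.21 ± 0.10 for exercise within SAMP8 (limma adjusted p = 0.711). Rab3a, a small GTPase of vesicles, differed by -0.08 ± 0.07 for strain and by 0.12 ± 0.07 for exercise within SAMP8. Slc17a7, the vesicular glutamate transporter of most cortical excitatory neurons, differed by -0.16 ± 0.10 for strain and 0.02 ± 0.10 for exercise. Syn2 and Rab3c lay between -0.03 and 0.13 in all 3 comparisons on their brightest features. A dimmer Syn2 feature, 41290, gave -0.28 for strain and 0.19 for exercise within SAMP8, and did not pass.

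Slc17a6, the vesicular glutamate transporter more typical of thalamic neurons, read 8.80, 8.93, 9.07, 9.47 and 9.47 in SAMR1, 9.55, 9.62, 9.06, 9.08 and 9.40 in sedentary SAMP8, and 9.08, 9.29, 9.25, 8.89 and 8.20 in exercised SAMP8. Replicate 15 was again the lowest, and the groups overlapped. The difference in exercised against sedentary SAMP8 was -0.40 ± 0.20 (limma adjusted p = 0.714), or -0.22 without replicate 15, while the second Slc17a6 feature gave 0.06. Syt2, the calcium sensor typical of fast-firing and brainstem neurons, differed by -0.33 ± 0.16 in the same comparison (limma adjusted p = 0.711). Omitting 1 array gave Syt2 differences of -0.41 to -0.24. Syt2 has 1 feature, with a mean log2 of 6.85 and a lowest value of 6.29, near the lower quartile of 6.17.

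Slc17a6 and Syt2 stand beside the following values of markers of neighbouring regions. Of 13 thalamus and brainstem markers 11 were measured, 0 of them under the lower quartile on every array; 10 of 11 were positive for strain (median log2 difference 0.24, 1 called, Zic1 at 0.97 ± 0.24, limma adjusted p = 0.043) and 8 of 11 were negative for exercise within SAMP8 (median -0.15, 0 called). That call, Zic1, did not survive the omission of any single array among replicates 1, 3, 4, 5, 6, 7, 8, 9 and 11. In the thalamus and brainstem list, Lhx9, Gbx2 and Chat lay under the lower quartile on 14, 13 and 3 arrays. The signs of Lhx9 and Gbx2 therefore rest on values near an unknown floor. Summed over that list, intensity lay between 2364 and 3200 on SAMR1 arrays, between 2824 and 4186 on sedentary SAMP8 arrays and between 2868 and 3195 on exercised ones. Of 12 striatum markers 10 were measured, 0 under the lower quartile on every array; 9 of 10 were positive for strain (median 0.21) and 10 of 10 negative for exercise within SAMP8 (median -0.50, 0 called, as over all genes). At an unadjusted limma p under 0.05 there were 7 of these 10 for exercise (70%, against 7.08% of all genes) and 1 for strain (10%, against 14.3%). Of the 11 thalamus and brainstem markers there were 2 for exercise (18.2%) and 4 for strain (36.4%). The striatum sum lay between 31569 and 66539, between 50908 and 75331 and between 37898 and 66953 in the same order of groups. The part of neighbouring tissue in the Slc17a6 and Syt2 values was not tested.

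The SNARE fusion machinery, counted here with the synuclein Sncb, had 9 measured genes with 0 called in each comparison, and 7 of the 9 had a negative difference for strain. Stx1a, the plasma membrane SNARE syntaxin, had the smallest p of all 35 genes for strain. Its values were 12.31, 12.11, 12.51, 12.32 and 12.44 in SAMR1, 12.14, 12.02, 12.04, 11.93 and 12.19 in sedentary SAMP8, and 12.10, 12.05, 12.17, 12.16 and 12.25 in exercised SAMP8. In SAMR1 4 of 5 arrays lay above every SAMP8 array of either kind, and replicate 2 lay among the SAMP8 arrays. The strain difference was -0.27 ± 0.08, that is 1.21-fold lower in sedentary SAMP8 (limma adjusted p = 0.109). It passed without SAMR1 replicate 2 (-0.33, limma adjusted p = 0.0303), so that 1 array decides on which side of the threshold Stx1a falls. Exercised SAMP8 against SAMR1 gave -0.19 ± 0.08 (limma adjusted p = 0.225).

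Nsf, the ATPase that takes spent SNARE complexes apart, read 15.53, 15.17, 15.28, 15.72 and 15.53 in SAMR1, 15.16, 15.15, 15.09, 15.06 and 15.29 in sedentary SAMP8, and 15.37, 15.55, 15.25, 15.58 and 14.38 in exercised SAMP8. On this feature, the brighter one, the other 4 exercised arrays reached the SAMR1 range, while replicate 15 lay below all other arrays. The strain difference of -0.30 ± 0.19 did not pass (limma adjusted p = 0.500). On the second Nsf feature replicate 15 was again the lowest array, at 10.28 against 10.83 to 11.80 elsewhere. The other exercised arrays read 10.98, 11.21, 11.03 and 11.24 on that feature. SAMR1 read 11.02 to 11.80 on it and sedentary SAMP8 10.83 to 11.56. For exercise within SAMP8 the brighter feature gave 0.08 and the second -0.29.

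Snap25 and Vamp2, the most abundant SNAREs of forebrain terminals, differed by -0.09 ± 0.10 and -0.05 ± 0.10 for strain and by 0.09 ± 0.10 and 0.07 ± 0.10 for exercise within SAMP8. Vamp1, the related vesicle SNARE, differed by -0.18 ± 0.13 for strain and -0.19 ± 0.13 in exercised SAMP8 against SAMR1. Cplx1, a complexin that clamps and promotes fusion, gave -0.09, -0.06 and -0.15 (± 0.09 each). Napb, an adaptor of Nsf, and Sncb, beta-synuclein, ran from -0.17 to 0.04 over the 3 comparisons on their brightest features. The second Napb feature gave -0.25 in exercised SAMP8 against SAMR1 and did not pass.

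Cplx2, the complexin of most cortical excitatory neurons, gave different answers on its 4 features. Its brightest feature, 11327, ran from 15.88 to 16.00 on all arrays, at the top of the scale, and differed by at most 0.05 between groups. Feature 4234 read 11.33, 11.14, 11.37, 10.93 and 11.22 in SAMR1, 10.73, 10.33, 10.17, 10.60 and 10.30 in sedentary SAMP8, and 10.40, 10.25, 10.56, 9.94 and 9.16 in exercised SAMP8. All 5 SAMR1 arrays lay above all 10 SAMP8 arrays on that feature. In the fit of every feature on its own, it fell by 1.14 ± 0.21 on the log2 scale in exercised SAMP8 against SAMR1, a 2.20-fold lower signal (limma adjusted p = 0.00649 over features), and it was the only 1 of the 73 features to pass in any comparison. Over all features the share called there was 3.28%. Under 4 of the alternative settings, and without replicate 4, 6 or 12, the Amph feature passed there too, and without replicate 2 a Nrxn3 feature did (-0.60, limma adjusted p = 0.032 over features).

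For strain alone feature 4234 gave -0.77 ± 0.21 (limma adjusted p = 0.0763), with 2.61% of all features called in that comparison. Exercised replicate 15, at 9.16, enters the spread that the 3 groups share, and without it the same strain difference of -0.77 had an SE of 0.14 and passed (limma adjusted p = 0.00607), and the difference between exercised SAMP8 and SAMR1 became -0.91 (limma adjusted p = 0.00297). Feature 16980 had the same sign (-0.49 ± 0.34 and -0.67 ± 0.34) but did not pass, and feature 23000 gave -0.02 ± 0.14 and -0.09 ± 0.14. All 4 features carry the same transcript accession in the annotation, so these data do not settle whether Cplx2 mRNA as a whole differed. Probe sequences were not used here, and whether the strains differ in sequence under feature 4234 was not tested. The spread between the 4 Cplx2 features, 0.80 for strain and 1.18 in exercised SAMP8 against SAMR1, was the largest among the 24 of these genes with more than 1 feature.

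**Figure D3:**
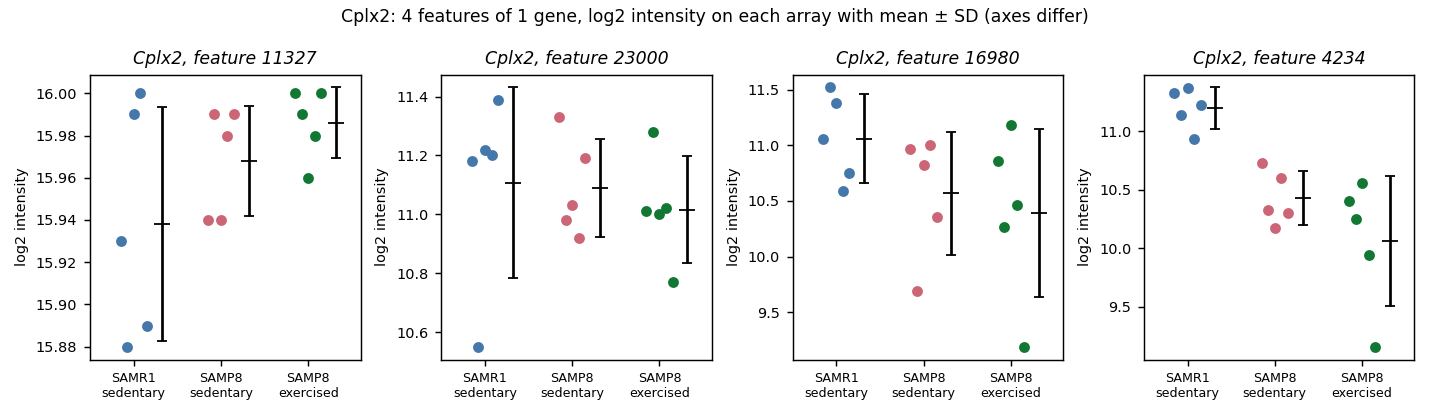
Log2 intensity of the 4 Cplx2 features on each array (points) with mean ± SD (bars, n = 5 per group); the vertical axes differ. Feature 4234 is higher on all 5 SAMR1 arrays than on all 10 SAMP8 arrays, while feature 11327 lies between 15.88 and 16.00 in every group.

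Disagreement between features was common. Of the 24 genes with more than 1 feature, 12 had features of both signs for strain, 12 for exercise within SAMP8 and 8 in exercised SAMP8 against SAMR1. The median spread between the features of a gene was 0.18, 0.17 and 0.21 on the log2 scale in that order, beside a median absolute difference over the 35 genes of 0.08, 0.14 and 0.13.

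Of the 6 synaptotagmins, 0 were called. Syt7, a slow high-affinity calcium sensor, read 13.26, 12.92, 13.19, 13.16 and 13.18 in SAMR1, 12.85, 13.14, 12.75, 12.81 and 12.93 in sedentary SAMP8, and 13.13, 13.01, 13.08, 13.07 and 12.90 in exercised SAMP8. The exercised mean lay between the other means, and all groups overlapped. The differences were -0.25 ± 0.09 for strain (limma adjusted p = 0.190) and 0.14 ± 0.09 for exercise within SAMP8 (limma adjusted p = 0.759), and the other 3 Syt7 features lay between -0.03 and 0.06 for strain. Syt1, the main calcium sensor of fast release in the forebrain, differed by -0.004 ± 0.14, -0.17 ± 0.14 and -0.18 ± 0.14 in the 3 comparisons on its brightest feature, which has a mean log2 of 15.27, near the top of the scale. All 5 Syt1 features were negative in each comparison, from -0.40 to -0.004, from -0.46 to -0.08 and from -0.59 to -0.18, and 0 of them passed. On Syt1 feature 39113 SAMR1 read 12.01 to 12.44 and exercised SAMP8 10.92 to 11.91, without overlap. Syt11, which does not sense calcium, gave -0.16 ± 0.08 for strain (limma adjusted p = 0.406), Syt5 gave 0.21 ± 0.13 in exercised SAMP8 against SAMR1 (limma adjusted p = 0.448), and Syt4 stayed between -0.06 and 0.10 on its brightest feature. The second Syt4 feature, 5771, gave 0.14, -0.38 and -0.24 in the 3 comparisons and did not pass.

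The 7 active zone genes and neurexins also gave 0 calls. Pclo, the giant scaffold piccolo, read 12.97, 12.87, 12.95, 13.03 and 12.91 in SAMR1, 12.90, 12.70, 13.03, 12.89 and 13.07 in sedentary SAMP8, and 13.11, 12.96, 13.07, 13.30 and 13.17 in exercised SAMP8. The exercised arrays were mostly the higher ones, with overlap. The difference was 0.20 ± 0.08 against sedentary SAMP8 (limma adjusted p = 0.671) and 0.18 ± 0.08 against SAMR1 (limma adjusted p = 0.280). A dimmer Pclo feature, 5855, gave -0.14 in the first of these. For strain it gave 0.41 where the brightest gave -0.03, and neither passed. Bsn, the related scaffold bassoon, lay between -0.02 and 0.07 (± 0.14 each) on its brightest feature. Its dim second feature, 42249, gave 0.34, -0.11 and 0.23 in the 3 comparisons and did not pass. On that feature SAMR1 read 6.25 to 6.53 and sedentary SAMP8 6.58 to 6.92, without overlap.

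Rims1, which links calcium channels and vesicles at the active zone, differed by -0.25 ± 0.14 for exercise within SAMP8 (limma adjusted p = 0.725), and Rims2 by -0.15 ± 0.11. Nrxn2, a presynaptic adhesion receptor, differed by -0.21 ± 0.10 in that comparison (limma adjusted p = 0.709), and Nrxn3 by -0.20 ± 0.18. Unc13a, the priming factor, gave 0.20 ± 0.14. The active zone group thus held members of both signs after exercise, 2 positive and 5 negative, on their brightest features. The second Rims1 feature, 18240, gave -0.29, -0.18 and -0.47 in the 3 comparisons, where the brightest gave 0.04, -0.25 and -0.21. The second Nrxn3 feature, 23230, gave -0.14, -0.33 and -0.48, where the brightest gave 0.11, -0.20 and -0.08. Neither second feature passed in the main fit.

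The endocytic genes held the single call. Amph encodes amphiphysin, which bends membrane and recruits dynamin to the necks of endocytic pits. Its values were 14.69, 14.68, 14.50, 14.93 and 14.80 in SAMR1, 14.54, 14.86, 14.92, 14.83 and 14.75 in sedentary SAMP8, and 15.09, 14.87, 15.16, 15.16 and 15.24 in exercised SAMP8. In the exercised group 4 of 5 arrays lay above every sedentary array of either strain, and replicate 12 lay among them, so the groups overlapped.

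Amph rose by 0.38 ± 0.10 on the log2 scale in exercised SAMP8 against sedentary SAMR1, that is 1.30-fold (95% interval 0.17 to 0.59, limma adjusted p = 0.0397). Against sedentary SAMP8 the difference was 0.32 ± 0.10 (limma adjusted p = 0.577), and for strain it was 0.06 ± 0.10 (limma adjusted p = 0.847). The call is marginal: Amph has 1 feature, which did not pass when the p was adjusted over all features (0.0547), and leaving out any of 10 of the 15 arrays gave an adjusted p between 0.0516 and 0.104 with a difference of 0.33 to 0.40. Those arrays are SAMR1 replicates 1, 2, 3 and 5, sedentary SAMP8 replicates 9 and 10 and exercised SAMP8 replicates 11, 13, 14 and 15. That comparison differs in both strain and exercise, which cannot be told apart in it.

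Dnm1, the dynamin that cuts vesicles free, gave -0.13, 0.04 and -0.09 (± 0.12 each). Synj1, the lipid phosphatase that helps shed the clathrin coat, was dim: 14 of 15 arrays lay under the lower quartile, and SAMR1 replicate 5 read 4.92 where the other SAMR1 arrays read 6.03 to 6.28. Its differences of 0.03, 0.15 and 0.18 (± 0.19 each) rest on values near an unknown floor.

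**Figure D4:**
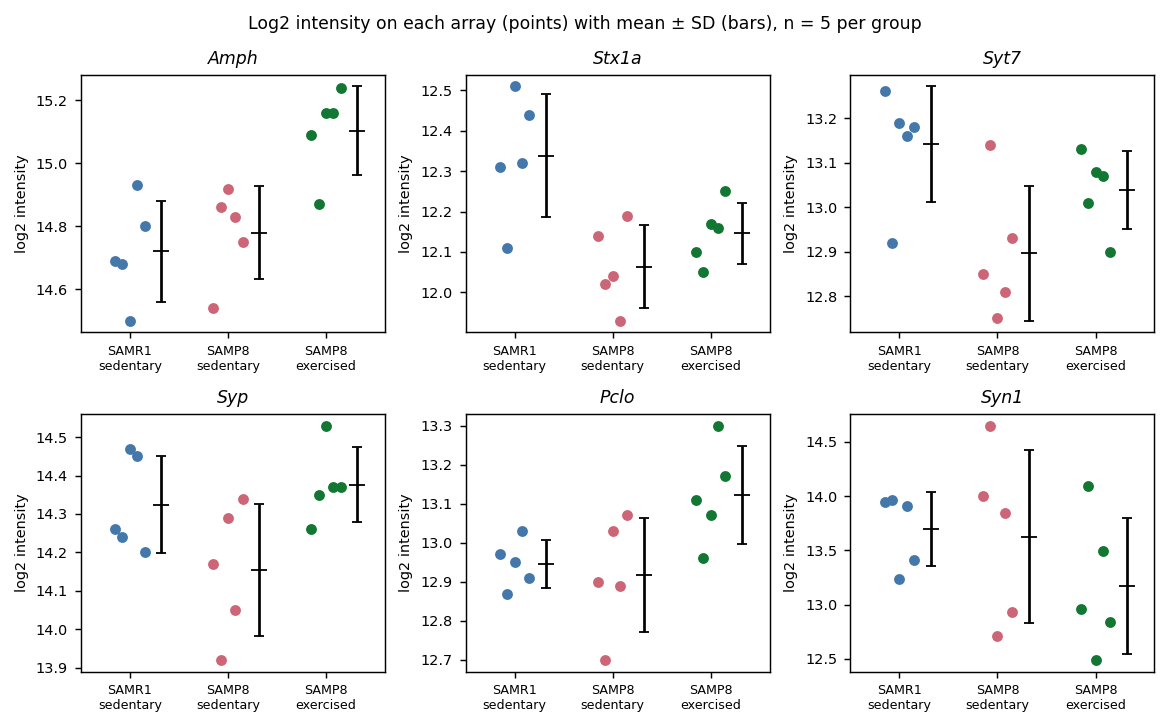
Log2 intensity of 6 presynaptic genes on each array (points) with mean ± SD (bars, n = 5 per group); the vertical axes differ. In Amph 4 of 5 exercised arrays lie above every sedentary array, in Stx1a 4 of 5 SAMR1 arrays lie above every SAMP8 array, and Syn1 spans from 12.49 to 14.65.

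The genes did not move as 1 block. Over the 595 pairs of genes the correlation of deviations from the group means across 15 arrays had a median of 0.10 (0.002 over pairs of all genes), and 13.4% of pairs were above 0.5 (7.28% over all), values that share the same arrays and are given as a description. Dnm1 and Sncb were the closest pair, at 0.889, and Nrxn2 and Vamp1 the most opposed, at -0.801. A score was taken on each array as the mean deviation of the 35 genes from their own means. It averaged 0.04 ± 0.08 (SD, n = 5) in SAMR1, -0.02 ± 0.06 in sedentary SAMP8 and -0.02 ± 0.08 in exercised SAMP8. The 3 groups overlapped.

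Exercised SAMP8 replicate 15 stood apart within its group. Its score was -0.157, while the other 4 exercised arrays lay between -0.015 and 0.038. It was the lowest array for 11 of the 35 genes (31.4%, against 8.15% over all genes), which are Syn3, Rab3c, Slc17a6, Cplx1, Nsf, Syt1, Syt2, Syt11, Rims1, Nrxn2 and Nrxn3, while 3 of the 35, Snap25, Unc13a and Amph, were highest on it (13.3% over all genes). Without it, the median difference between exercised SAMP8 and SAMR1 moved from -0.09 to -0.02. The striatum and oligodendrocyte marker scores of this array, -0.61 and -0.369, were the lowest of all 15 arrays. It was also the lowest exercised array for the markers of choroid plexus (-1.008), endothelium (-0.164), thalamus and brainstem (-0.156), cortical excitatory neurons (-0.155) and neurons in general (-0.089), but not for those of interneurons, astrocytes and microglia (0.099, -0.1 and -0.063). The part of neighbouring tissue, cell makeup or RNA quality in its values was not tested.

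**Figure D5:**
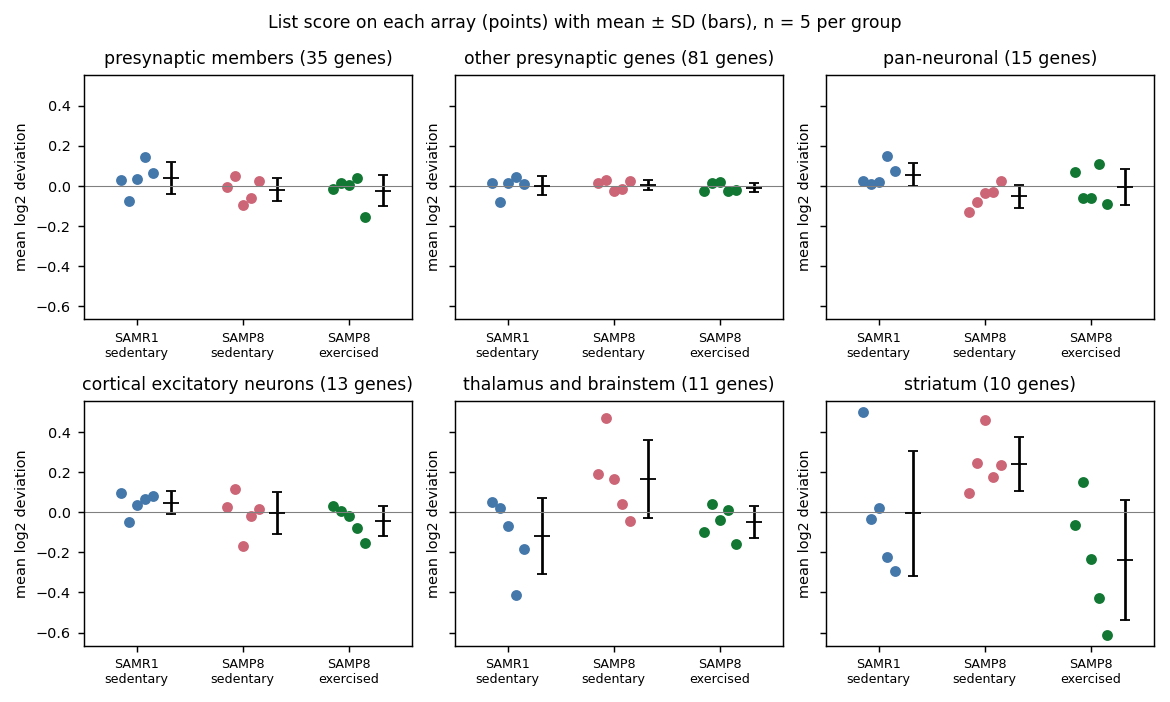
Score of 6 gene lists on each array (points), as the mean log2 deviation of the list's genes from their own means, with mean ± SD (bars, n = 5 per group). The presynaptic scores lie between -0.157 and 0.143 with overlapping groups, and the striatum scores are spread more widely, down to -0.61.

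Other presynaptic genes were read from a second list of 88, of which 81 were measured. The remaining genes of that list were not analysed here. In sedentary SAMP8 against SAMR1 1 rose and 2 fell (1.85% and 1.18% of all genes), 78 did not pass, and the median difference was -0.01. In exercised against sedentary SAMP8 0 passed by limma (5 at an unadjusted p under 0.05), and in exercised SAMP8 against SAMR1 1 fell (1.45% of all genes) and 80 did not pass. At an unadjusted p under 0.05 there were 8, 5 and 15 of the 81 in the 3 comparisons, or 9.88%, 6.17% and 18.5%, against 14.3%, 7.08% and 18.2% of all genes.

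Dnajc5, cysteine string protein, the vesicle chaperone that keeps Snap25 folded, fell by 0.71 ± 0.12 in sedentary SAMP8 against SAMR1 (limma adjusted p = 0.00286) and by 0.67 ± 0.12 in exercised SAMP8 against SAMR1 (limma adjusted p = 0.00433). On the brightest Dnajc5 feature the values were 14.31, 13.86, 14.29, 14.25 and 14.34 in SAMR1, 13.49, 13.37, 13.26, 13.69 and 13.69 in sedentary SAMP8, and 13.75, 13.48, 13.64, 13.59 and 13.22 in exercised SAMP8. SAMR1 did not overlap either SAMP8 group. A second Dnajc5 feature, 7136, rose by 0.62 ± 0.12 for strain (limma adjusted p = 0.00796 over features), also without overlap, and the last of its 3 features gave -0.11 ± 0.10. With the mean of the features, the strain difference was -0.07 (limma adjusted p = 0.759), so no direction can be given for the gene. Whether strain differences in sequence lie under the Dnajc5 features was not tested.

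Stxbp5, tomosyn, an inhibitor of SNARE assembly, fell by 0.35 ± 0.08 for strain (limma adjusted p = 0.0195), and its other 3 features gave -0.01, 0.05 and 0.12. Omitting replicate 5, 6 or 7 ended the Stxbp5 call (-0.315 to -0.34). Sncg, gamma-synuclein, rose by 0.42 ± 0.10 for strain (limma adjusted p = 0.0317) at dim values, from 6.11 to 6.49 in SAMR1 and 6.43 to 6.86 in sedentary SAMP8. Omitting any 1 of replicates 1, 2, 4, 5, 6, 7 and 8 ended the Sncg call (0.37 to 0.415). In exercised against sedentary SAMP8 the smallest p values belonged to Snap91, a clathrin adaptor of vesicle retrieval (0.25 ± 0.09, limma adjusted p = 0.645), Erc1, an active zone scaffold (0.17 ± 0.07, limma adjusted p = 0.663), and Napa, an adaptor of Nsf (-0.16 ± 0.07, limma adjusted p = 0.682). None of these 3 passed.

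Markers of the cells that carry these genes were read in the same fit. Of 15 pan-neuronal markers, 0 were called in any of the 3 comparisons, with median differences of -0.02, 0.06 and -0.02. Of the 13 measured markers of cortical excitatory neurons 0, 0 and 1 were called: Rorb, a layer marker of the cortex, differed by -0.33 ± 0.14, -0.53 ± 0.14 and -0.86 ± 0.14, the last at limma adjusted p = 0.00237. Of 12 interneuron markers 0 were called, with medians of 0.09, 0.02 and 0.12, and 8, 7 and 11 were positive. At an unadjusted limma p under 0.05 there were 4, 4 and 2 (33.3%, 33.3% and 16.7%, against 14.3%, 7.08% and 18.2% of all genes). The 4 for strain were all higher in SAMP8. For strain, 2 of the 12 did not overlap between groups (4.57% of all genes). Choroid plexus markers, a tissue next to the cortex, had medians of 0.77, 0.02 and 0.77 over 6 measured genes, of which 6, 3 and 5 were positive and 1, 0 and 1 called. The call is Aqp1, a water channel, at 1.01 ± 0.25 for strain (limma adjusted p = 0.0388) and 1.07 ± 0.25 in exercised SAMP8 against SAMR1 (limma adjusted p = 0.0236). Omitting any 1 of replicates 2, 3, 5, 6, 7, 8, 9 and 13 ended the Aqp1 call for strain, and omitting 5, 11, 12 or 13 ended the other. In the choroid plexus list, Otx2 lay under the lower quartile on 12 arrays, Ttr on 4, Aqp1 on 3 and Kl and Folr1 on 2 each. Of 10 astrocyte markers 1 was called for strain, Gfap (0.72 ± 0.14, limma adjusted p = 0.00771). Of 11 endothelial markers 2 were called for strain and 2 in exercised SAMP8 against SAMR1, Slco1c1 (-0.73 and -0.86) and Abcb1a (0.91 and 0.93). Abcb1a was dim, under the lower quartile on 5 arrays. Of 9 microglia markers 1 was called in exercised SAMP8 against SAMR1, Aif1 (0.41 ± 0.09, limma adjusted p = 0.0189). Leaving out 1 array gave 0 to 2 microglia calls in that comparison. Of 10 oligodendrocyte markers 0 were called in any of the 3 comparisons, with medians of -0.06, -0.12 and -0.21, and 9, 9 and 10 were negative. At an unadjusted limma p under 0.05 there were 1, 0 and 2 of them (10%, 0% and 20%). Over all genes 3.03% and 4.26% were called. The part of these cell types and of dissection in the presynaptic values was not tested.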

How the data were processed

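Cy3 intensity was measured on 15 arrays, and the authors deposited 1 linear intensity column per array. limma was used per the submitters' processing notes, with no version or step. The sources used here do not give background correction, normalization, slide, scan, detection flags or build, so no batch could be tested. At 96.2% of ranks the sorted columns differed by under 0.05 (log2), so no further normalization was applied. Of the 16401 genes, 16334 matched the RefSeq table by Entrez identifier and 0 symbols differed. The number of arrays limits the precision.

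Log2 values without a pseudocount were fitted in 3 groups with lmFit and eBayes (limma 3.58.1, R 4.3.3; two-sided; Benjamini-Hochberg over all genes), and every feature was also fitted on its own. Alternatives changed 1 choice at a time. The fit was tested on simulated data. Figures used Python 3.11.15 and matplotlib 3.10.9. Members and lists were chosen with earlier results of these data known. Named were all members past the threshold (otherwise the 10 smallest p), the largest probe disagreement, other presynaptic genes past the threshold (otherwise 3), and marker genes past the threshold.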

Additional observations from a re-analysis of the deposited data

Results flagged for a closer look

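In 3 of 108 groups of 5 arrays tested (2.78%), 1 array lay further from the rest than Dixon's 95% critical value of 0.71 for the gap over the range, where chance gives about 1 in 20. Nsf read 14.38 on exercised SAMP8 replicate 15, with the other 4 arrays between 15.25 and 15.58. The score of the 35 presynaptic genes was -0.157 on the same array, with the others between -0.015 and 0.038. Synj1 read 4.92 on SAMR1 replicate 5, with the others between 6.03 and 6.28, all dim values.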

How the results depend on the processing

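Each result was recomputed under 25 alternatives, 15 of which left out 1 array. No paired analysis was possible because the groups share no replicate numbers. Leaving out 1 array gave 386 to 516 genes for strain, 0 to 3 for exercise within SAMP8 (3, and 4 features, without exercised replicate 12) and 483 to 848 for exercised SAMP8 against SAMR1, and 663 to 919, 0 to 4 and 753 to 1357 features. Presynaptic genes called ranged from 0 to 1, 0 to 0 and 0 to 1, and other presynaptic genes from 1 to 4, 0 to 0 and 1 to 2. The median of the presynaptic genes ranged from -0.0768 to -0.0226, 0.0223 to 0.0599 and -0.135 to -0.0237 (without exercised replicate 15). In exercised SAMP8 against SAMR1, 0 presynaptic genes passed with array weights (Amph 0.37, limma adjusted p = 0.0528) and 0 with only both groups compared (0.383, 0.0736). Of the other presynaptic genes there, 2 passed without the dimmest 30% of features, 2 with a trended and robust prior and 0 with the mean of all features, which also left 1 for strain. With that mean, Napa reversed in exercised against sedentary SAMP8 (0.0209, not called), Stxbp5 gave -0.0468 and Dnajc5 -0.0668 for strain. The Sncg call was lost with 32 added to the intensity (0.306, limma adjusted p = 0.0509), array weights, the trended prior, only both groups or without any of 7 single arrays (limma adjusted p up to 0.0919), and the Stxbp5 call without SAMR1 replicate 5 or sedentary replicates 6 or 7 (up to 0.0569). The Cplx2 feature 4234 strain difference passed without the dimmest features (limma adjusted p = 0.044), with 32 added to the intensity (0.0489) and with only both groups (0.00955). Features of the presynaptic genes past the threshold numbered 0 to 1 for strain and 1 to 2 in exercised SAMP8 against SAMR1, the second there being Amph with the dimmest 30% or features under the lower quartile left out, 32 added, or the trended prior. The cause was not tested.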
